A study of Mus musculus with 23 samples.

Results

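The genes described here are olfactory receptors (gene names beginning with Olfr) whose probes gave signal on every brain array of the series. Of the 1105 Olfr identifiers printed on the array, 336 had a row in the authors' table of log2 expression values, and 68 of these 336 (20.2%) had at least 1 spot with the scanner's mark for a signal well above background on all 23 arrays. The 68 receptors were chosen by that mark, so their detection is a selection rule and not a finding. Of all 31395 rows of the table, 74.7% met the same rule.

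Olfactory receptors are G protein-coupled receptors with several membrane-spanning helices, and they form the largest gene family of the mouse genome. In the nose, each olfactory sensory neuron expresses a single receptor gene, and odorant binding activates the G protein Golf (Gnal) and adenylyl cyclase 3 (Adcy3), whose product cAMP opens a cyclic nucleotide-gated channel (Cnga2, Cnga4, Cngb1). Transcripts of some receptors are also known outside the nose, the brain included. The coding region of most receptor genes is a single exon and the genes lie in tandem clusters, so neighbors are often similar in sequence.

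The study took 3 brain regions, namely frontal cortex (FC), the striatum (ST) and the hypothalamus (HT), from 8 C57BL/6 mice, all female and 5 weeks old at the start. For 8 weeks, 4 mice (L52, L54, L56, L58) had standard chow (SC), and the other 4 (O52, O54, O56, O58) chose freely between chow and a chocolate mixture (CM), and an 11-day behavioral test battery followed in both groups, during which the SC mice were also given CM for short periods. Each region had 4 SC and 4 CM arrays, except that FC had 3 CM arrays, since the O52 array of FC was not analysed here. The region called HT here carries the label of a thalamic region, and the name of the paper was kept. All regions of a mouse came from the same animal, and a given number names different mice in the SC and CM groups.

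The arrays lay on 3 slides scanned on 1 day. Slide 1 held all 4 CM arrays of ST, 3 SC arrays of FC and the ST array of L52. Slide 2 held all 4 CM arrays of HT, the FC array of L52, the HT array of L58 and the ST arrays of L54 and L56. Slide 3 held all 3 CM arrays of FC, 3 SC arrays of HT and the ST array of L58. Thus no slide held FC arrays of both diets, and every CM group lay on a single slide. Between 36432 and 39008 spots per array were well above background on slide 1, between 37828 and 41191 on slide 2 and between 39380 and 42261 on slide 3. On chow, all 6 striatal markers were called higher in ST than in FC, and all 5 cortical markers were called lower in HT than in FC. Of the hypothalamic markers, 7 of 10 were called higher and 1 lower in HT than in FC, and 6 of 6 thalamic markers were called higher. Because these are bulk samples, fewer cells of a type and less RNA per cell cannot be told apart.

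Each value below is a log2 normalized intensity, in which a difference of 1 corresponds to a 2-fold change. The 68 receptors covered values from 4.71 (Olfr1382) to 12.41 (Olfr544, a receptor known to respond to azelaic acid). Of the other 268 Olfr rows, 12 were marked on 22 arrays, 227 on 1 to 21 arrays and 29 on none. Just outside the rule, Olfr10 ranged from 5.22 to 7.60, Olfr122 from 5.30 to 7.50 and Olfr141 from 5.33 to 7.32. Just inside it, the lowest values were 4.71 for Olfr1382, 4.98 for Olfr681 and 5.04 for Olfr578. The rows of Olfr1382 and Olfr681 average 2 probes, of which the second was well above background on 0 arrays for Olfr1382 and on 1 array for Olfr681.

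On the array's mm9 coordinates, 66 of the 68 receptors were placed on 16 chromosomes, with 15 each on chromosomes 2 and 7 and 7 on chromosome 9. Of these, 51 lay in 17 clusters in which each receptor was less than 1000000 bases from the next. The cluster with most receptors held 6 (Olfr544, Olfr549, Olfr576, Olfr578, Olfr609 and Olfr629) on chromosome 7, in the part of that chromosome that carries the class I, or fish-like, receptors. Another held Olfr94, Olfr96, Olfr97 and Olfr103 on chromosome 17, beside the major histocompatibility complex. RefSeq (GRCm38.p6) classed 65 of the receptors as protein coding and Olfr1372-ps1 and Olfr75-ps1 as transcribed pseudogenes, and Olfr207 had no match. For 63 receptors a single probe of 60 bases was behind the value. The receptors' 73 probes had a median GC content of 45.0% (range 35.0 to 55.0%), compared with 40.0% for the 1115 probes of other Olfr identifiers and 43.3% for all 55681 probes.

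Variation between slides was the main pattern among these receptors. The share of a row's sum of squares that lay between slides had a median of 68.1% over the 68 receptors, compared with 29.3% over the other Olfr rows and 23.4% over all rows. The share between regions had a median of 18.8% over the receptors and 33.7% over all rows, and that between diets 0.754% and 1.56%. Slide had the largest of these 3 shares for 52 receptors, region for 15 and diet for 1. This was counted over the receptors only, and diet has fewer levels than slide or region. The shares overlap, because slides, regions and diets were not balanced. The diet share pools the 3 regions, so diet differences of opposite sign cancel in it. Such were the median CM-SC differences of 0.600 in FC and -0.407 in ST given below, without a slide term.

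**Figure D1:**
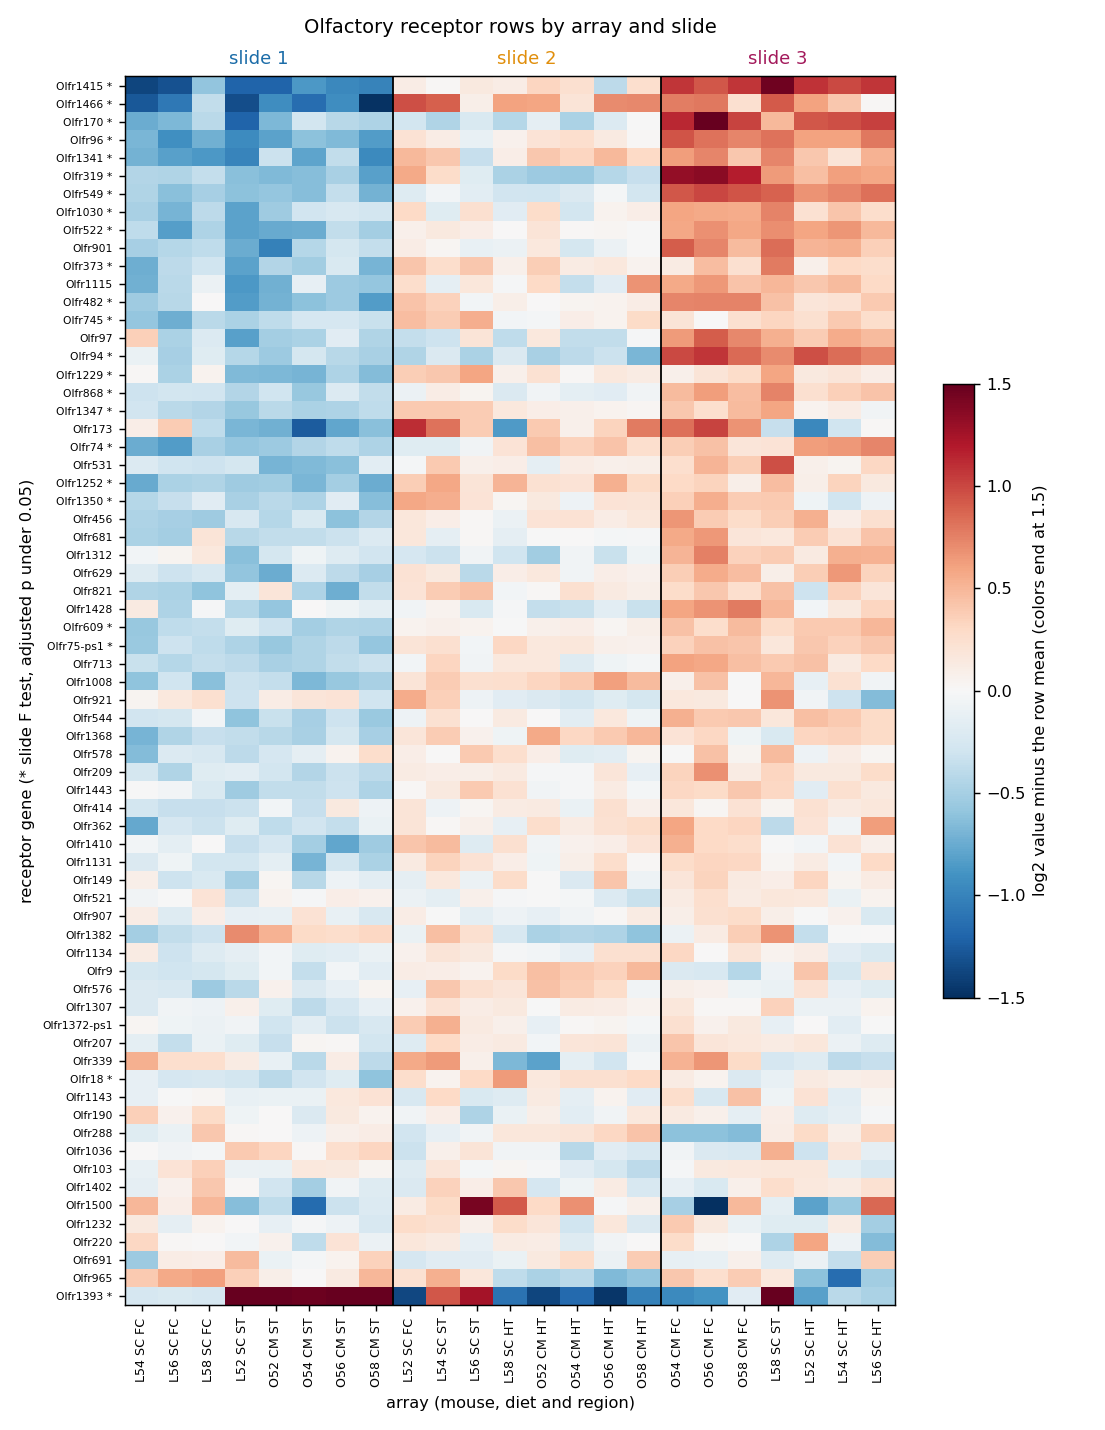
Log2 value of each of the 68 receptors (rows) on each of the 23 arrays (columns, grouped by slide), after the row mean was subtracted; red is above and blue below the mean, and colors end at 1.5. Most rows are blue on slide 1 and red on slide 3, whereas Olfr1393 at the bottom is red on the ST arrays of each slide.

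On all 8 arrays of slide 1 the median receptor lay below its own mean, by 0.24 to 0.39, and 9 to 19 of the 68 receptors were above their mean. On slide 2 the median receptor lay between -0.02 and 0.19, with 33 to 54 receptors above their mean. On slide 3 it lay between 0.14 and 0.34, with 46 to 60 above. The median of all rows stayed between -0.03 and 0.04 on every array. Every array of slide 3 was above every array of slide 1 for 32 of the 68 receptors, as it was for 9.15% of all rows, and no receptor showed the reverse. Every array of slide 2 was above every array of slide 1 for 23 receptors, as it was for 6.43% of all rows, again with no receptor in reverse. Since the slides also differ in region and diet, these counts do not separate the 3.

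A linear model with the 6 groups, the slide and the mouse (limma) was used to compare slides within groups. In it, the slide differences come only from the 12 SC arrays, since each CM group lay on 1 slide. At an adjusted p under 0.05, 23 of the 68 receptors (33.8%) differed between slides, compared with 8.13% of all rows and 4.48% of the other Olfr rows. Without array weights the count was 46, but the share of all rows was not counted in that fit. Several arrays that inform the slide term had low weights, at 0.22 (ST of L58), 0.27 (ST of L52) and 0.31 (FC of L52), compared with a median of 1.06. The median difference between slides 3 and 1 was 0.614 over the receptors, 0.415 over the other Olfr rows and -0.049 over all rows, and it was above 0 for 57 receptors. Between slides 2 and 1 the medians were 0.421, 0.225 and -0.036. Of the 23 called receptors, 22 were higher on slide 3 than on slide 1 and 21 were higher on slide 2 than on slide 1.

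The 3 receptors with the largest slide F statistic were Olfr96, Olfr1347 and Olfr549. Olfr96 ranged from 6.07 to 6.40 on slide 1 (median 6.26), from 6.91 to 7.27 on slide 2 (median 7.14) and from 7.63 to 7.96 on slide 3 (median 7.81). The slides did not overlap, although each held arrays of more than 1 region and of both diets. Within SC, Olfr96 was estimated 1.71 ± 0.17 (SE) higher on slide 3 than on slide 1 (adjusted p = 9.68e-06). The class I receptor Olfr549 ranged from 6.67 to 7.02, from 7.08 to 7.35 and from 8.06 to 8.38 on slides 1, 2 and 3, likewise without overlap (slide 3 minus slide 1, 1.46 ± 0.18, adjusted p = 8.62e-05). Olfr1347 ranged from 7.46 to 7.74 on slide 1, from 8.05 to 8.42 on slide 2 and from 7.97 to 8.62 on slide 3, so that only slide 1 stood apart (adjusted p = 3.8e-05).

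**Figure D2:**
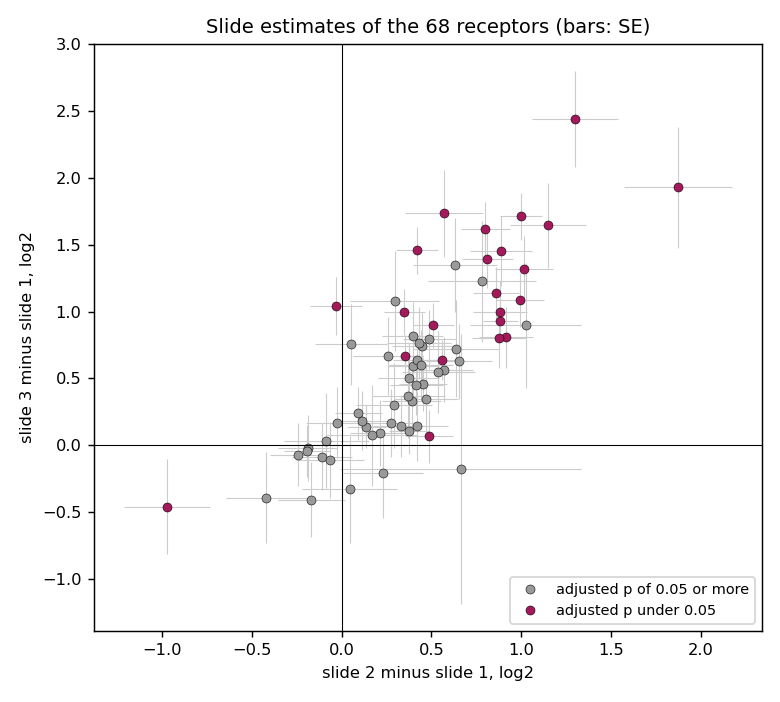
Estimated difference between slides 2 and 1 (x axis, log2) and between slides 3 and 1 (y axis, log2) for each of the 68 receptors, from the SC arrays of the model with slide, with SE bars. Most points lie in the upper right quadrant, 57 of 68 above 0 on the y axis, and Olfr1393 is the called point at the lower left.

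The SC arrays of ST were spread over all slides and show the same order within a single region and diet. From the slide 1 array (L52) to the slide 3 array (L58), 59 of 68 receptors were higher, with a median difference of 0.609, compared with -0.046 over all rows. From slide 1 to the mean of both slide 2 arrays (L54, L56), 61 of 68 were higher (median 0.498, all rows -0.038). For the SC arrays of FC, the slide 2 array (L52) was above the mean of the 3 slide 1 arrays for 54 receptors. The median difference was 0.395, compared with 0.228 over the other Olfr rows and 0.001 over all rows. For the SC arrays of HT, the mean of the 3 slide 3 arrays was above the slide 2 array (L58) for 43 receptors. The median difference was 0.077, below that of the other Olfr rows (0.151), and it was -0.005 over all rows. These steps rest on 1 to 3 arrays a side, and mouse and slide cannot be told apart in them.

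For Olfr74, Olfr713, Olfr868 and Olfr1307, the array carried 10 spots of a single probe, which gives the error within an array. On the scale of log2 processed intensity, the SD over the 10 spots had a median over arrays of 0.393 for Olfr74, 0.379 for Olfr713, 0.339 for Olfr868 and 0.298 for Olfr1307. The means of the arrays on slide 3 were above those on slide 1 by 1.76 for Olfr74, 1.58 for Olfr713, 1.59 for Olfr868 and 0.702 for Olfr1307. These intensities were not normalized between arrays, so differences in the brightness of whole arrays are part of them. In the normalized values, the model with slide gave smaller differences between slides 3 and 1. These were 0.897 for Olfr74, 0.637 for Olfr713, 0.997 for Olfr868 and 0.138 for Olfr1307. The spot SD covers error within an array only, and does not measure the variation between samples. Not all 10 spots met the detection rule, which held for 2 spots of Olfr74, 1 of Olfr713, 4 of Olfr868 and 6 of Olfr1307.

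The diet comparison asks which receptors differed between mice with and without access to the chocolate mixture. It was first made as in the study, with no slide term. In FC, 11 of the 68 receptors were called (at least 2-fold, adjusted p under 0.01), all of them higher in CM, compared with 2.94% of all rows. These were Olfr1415, Olfr170, Olfr319, Olfr96, Olfr549, Olfr94, Olfr1466, Olfr1341, Olfr522, Olfr901 and Olfr1030. The median CM-SC difference was 0.600 over the receptors, 0.364 over the other Olfr rows and -0.037 over all rows. In the same comparison, markers of neighboring tissues had medians below 0, at -1.16 over 6 olfactory bulb markers (Cdhr1 -2.29, adjusted p = 0.0125), -1.06 over 6 striatal markers (Drd2 -1.58, adjusted p = 0.0258) and -0.97 over 4 choroid plexus markers, none of them called. The hypothalamic and thalamic markers also had medians below 0 (-0.253 and -0.316), and the cortical markers had 0.112. In the model with slide, the median slide 3 minus slide 1 differences were -0.716 (bulb), -0.791 (striatum) and -0.311 (choroid plexus). The part of these tissues in the receptors' difference was not tested.

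Olfr1415 had values of 8.16 (L52), 6.68 (L54), 6.74 (L56) and 7.46 (L58) in SC FC and of 9.12 (O54), 8.99 (O56) and 9.13 (O58) in CM FC. The diets did not overlap, and the highest SC value was on the array of slide 2. The difference was 1.96 ± 0.28 (adjusted p = 7.87e-05), a 3.90-fold change. Olfr170 had 6.25, 5.79, 5.86 and 6.12 in SC FC (L52 to L58) and 7.66, 8.04 and 7.54 in CM FC, a difference of 1.83 ± 0.25 (adjusted p = 5.55e-05). Olfr319 had 8.40, 7.39, 7.37 and 7.48 in SC FC and 9.14, 9.18 and 9.01 in CM FC, a difference of 1.60 ± 0.19 (adjusted p = 3.17e-05). The L52 array of FC was again the highest of the SC arrays for both.

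The probes of these receptors and of Olfr549 are shown 5′ to 3′ because the diet and slide results turn on them. None of them shares 25 bases in a row with a probe of another identifier on the array. On mm9 they lie at chr1:94387395-94387454 on the minus strand (Olfr1415), chr16:19605941-19606000 on the minus strand (Olfr170), chr11:58515786-58515845 on the plus strand (Olfr319) and chr7:109703382-109703441 on the plus strand (Olfr549).
Olfr1415: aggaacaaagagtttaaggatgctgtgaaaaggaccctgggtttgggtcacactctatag
Olfr170: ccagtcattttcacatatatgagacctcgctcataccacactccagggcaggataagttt
Olfr319: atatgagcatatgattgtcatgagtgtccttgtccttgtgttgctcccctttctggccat
Olfr549: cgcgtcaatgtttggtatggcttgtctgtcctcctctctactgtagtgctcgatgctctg

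In ST, no receptor was called at 2-fold and an adjusted p under 0.01 (limma), compared with 0.602% of all rows, although 35 had an unadjusted p under 0.05, as did 25.5% of all rows. At an adjusted p under 0.05 without a fold threshold, 25 receptors were called, all lower in CM, compared with 6.37% of all rows called lower by that rule. The median CM-SC difference was -0.407 over the receptors and 0.029 over all rows, opposite in sign to that in FC. Olfr1466 had the largest difference, with 8.14, 10.36, 9.56 and 10.38 in SC ST (L52 to L58) and 8.54, 8.32, 8.54 and 7.99 in CM ST, giving -1.26 ± 0.35 (adjusted p = 0.0273). The SC array of L52, which lay on slide 1 with all CM arrays of ST, fell among them. Olfr1500 followed with 6.18, 7.10, 8.23 and 6.67 in SC ST and 6.44, 5.66, 6.49 and 6.61 in CM ST, and the diets overlapped (-1.21 ± 0.57, adjusted p = 0.188).

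In HT, 4 receptors were called at 1.5-fold and an adjusted p under 0.05, all lower in CM, compared with 0.178% of all rows. They were Olfr94, Olfr170, Olfr319 and Olfr549, which were all called higher in CM in FC. Olfr94 had 7.54, 7.41, 7.30 and 6.35 in SC HT (L52 to L58) and 6.09, 6.18, 6.25 and 5.88 in CM HT, a difference of -1.09 ± 0.16 (adjusted p = 0.0108). Olfr170 had 7.46, 7.50, 7.56 and 6.10 in SC HT and 6.40, 6.06, 6.33 and 6.52 in CM HT (-1.0 ± 0.21, adjusted p = 0.0382). For Olfr319 the values were 8.28, 8.45, 8.41 and 7.35 in SC HT and 7.29, 7.27, 7.41 and 7.48 in CM HT (-0.87 ± 0.16, adjusted p = 0.0261). Without the SC array of L58 7 receptors were called, and without the SC array of L54 or L56 or the CM array of O54 none was. For these fits with 1 array left out, the share of all rows was not counted. For each of these 3 receptors the SC array of L58, which shared slide 2 with the CM arrays of HT, lay at or near the CM values and the 3 SC arrays of slide 3 lay above them.

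**Figure D3:**
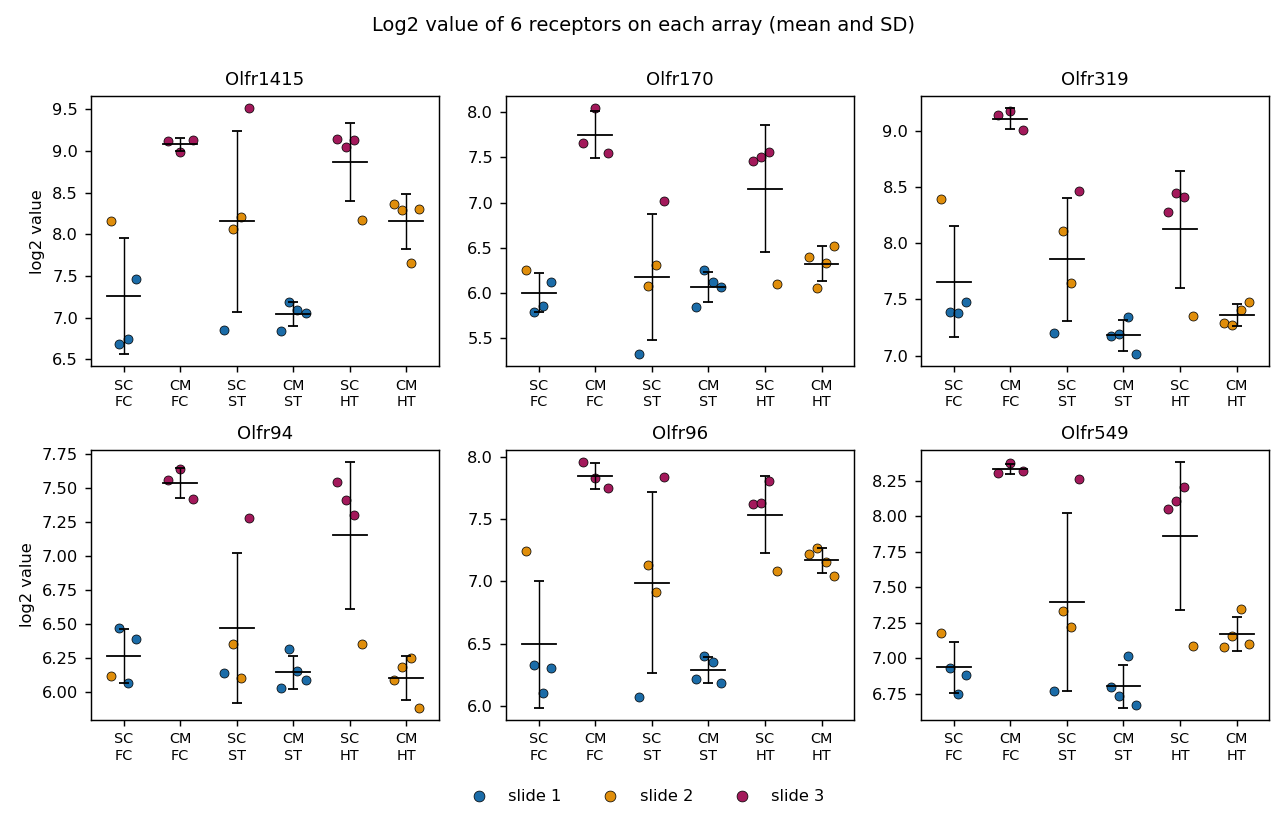
Log2 value of Olfr1415, Olfr170, Olfr319, Olfr94, Olfr96 and Olfr549 on every array, by diet and region (x axis), colored by slide; horizontal bars are group means and error bars SD. The 7 arrays of slide 3 are the highest for every receptor except Olfr319, where slides 2 and 3 overlap, in SC ST and SC HT as in CM FC.

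With the slide as a further fixed term, no receptor was called in FC, ST or HT, and none of all 31395 rows was (limma). An unadjusted p under 0.05 was met by 4, 7 and 0 of the 68 receptors, and by 2219, 1408 and 845 of all 31395 rows. The median CM-SC difference over the receptors was close to 0 in each region, at 0.026 in FC, at 0.022 in ST and at 0.033 in HT. For Olfr1415 in FC the difference became -0.27 ± 0.37, for Olfr170 0.18 ± 0.34 and for Olfr319 0.06 ± 0.22. For Olfr94 in HT it became -0.19 ± 0.19, and for Olfr170 in HT -0.03 ± 0.29. The standard error of the median receptor was 0.262 in FC with the slide term, compared with 0.147 without it, so that smaller diet differences in FC are not resolved. Slide estimates in this model rest on the SC arrays, and in FC diet and slide cannot be told apart without them.

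Within a slide, diets could be set side by side in ST and HT, with 1 SC array each. On slide 1, the mean of the 4 CM arrays of ST was above the SC array of L52 for 41 of 68 receptors, with a median difference of 0.049. On slide 2, the mean of the 4 CM arrays of HT was above the SC array of L58 for 34 of 68, with a median difference of -0.003. In HT on slide 2, Olfr94 differed by -0.25, Olfr170 by 0.23 and Olfr319 by 0.01 between CM and SC. In FC no such comparison could be made.

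The CM-SC differences were compared between regions by the difference of contrasts, without a slide term. FC and ST differed for 49 of the 68 receptors, compared with 30.1% of all rows, and 48 of them had the higher difference in FC. FC and HT differed for 34 receptors, compared with 20% of all rows, 33 of them higher in FC. ST and HT differed for no receptor and for 0.00% of all rows (limma), while 27 receptors had an unadjusted p under 0.05, as did 14.8% of all rows. The number called rose from 0 to 14 without the ST array of L52, 10 without the ST array of L56, 9 without the ST array of L54 and 8 without the FC array of L52. Over all rows, the calls in these fits were not counted. Among the receptors called for FC and ST and for FC and HT, the exception was Olfr288. Its values were 5.96, 6.07, 6.15 and 6.65 in SC FC and 5.64, 5.63 and 5.60 in CM FC, below every SC array, and its difference of -0.62 ± 0.10 (adjusted p = 0.000241) was under 2-fold. With the slide term, no receptor and no other row differed between regions at an adjusted p under 0.05 in any of these 3 comparisons. An unadjusted p under 0.05 was met by 2, 1 and 2 of the 68 receptors, and by 1468, 1507 and 580 of all 31395 rows.

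A single receptor, Olfr1402, had its largest share of the sum of squares between diets (41.8%). It had 8.44, 8.52, 8.72 and 9.05 in SC FC and 8.53, 8.43 and 8.73 in CM FC, where the diets overlapped. In ST it had 8.67, 9.0, 8.75 and 8.92 on SC and 8.37, 8.14, 8.60 and 8.46 on CM, and in HT 8.80, 8.77, 8.88 and 9.06 on SC and 8.39, 8.58, 8.77 and 8.40 on CM. The diets did not overlap in ST, and in HT the lowest SC and the highest CM value were equal at 2 decimals. It did not pass the test in FC, ST or HT (adjusted p = 0.309, 0.0914 and 0.267). It was named for this share after its values were seen.

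The region comparison on chow asks where in the brain a receptor's signal was higher. ST and FC differed for 6 receptors at 1.5-fold and an adjusted p under 0.05, compared with 9.33% of all rows. All 6 (Olfr1393, Olfr745, Olfr821, Olfr1382, Olfr1252 and Olfr1008) were higher in ST, where 5.15% of all rows were called higher and 4.18% lower. With the slide as a fixed term, 2 were called higher, Olfr1393 and Olfr1382, compared with 3.77% of all rows. Without a slide term, leaving out 1 array moved the count to 15 (ST of L52), 12 (FC of L52), 11 (ST of L54) or 3 (FC of L54, ST of L58). The share of all rows was not counted in those fits, so general shifts in the calls are not separated from shifts of the receptors.

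Olfr745 had 6.18, 7.04, 7.20 and 6.98 in SC ST (L52 to L58) and 7.12, 6.08, 5.92 and 6.26 in SC FC. The regions overlapped through both L52 arrays, and the difference of 0.81 ± 0.20 (adjusted p = 0.0108) became 0.06 ± 0.13 with the slide term (adjusted p = 0.875). Olfr821 had 6.28, 6.82, 6.87 and 6.88 in SC ST and 6.64, 5.98, 5.96 and 5.83 in SC FC, with the same overlap (0.77 ± 0.24, adjusted p = 0.0380, and 0.27 ± 0.24 with the slide term, adjusted p = 0.576).

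Olfr1393 was the receptor with the widest range over the arrays (3.36). It had 8.53, 7.56, 7.87 and 8.13 in SC ST (L52 to L58) and 8.19, 8.10, 8.21 and 8.37 in CM ST. It had 5.26, 6.37, 6.40 and 6.38 in SC FC, 5.68, 5.72 and 6.45 in CM FC, 5.81, 6.22, 6.15 and 5.52 in SC HT and 5.25, 5.46, 5.16 and 5.61 in CM HT. All 8 ST arrays were above all arrays of the other regions, on each slide and on both diets, and 90.2% of the sum of squares lay between regions. On chow it was higher in ST than in FC by 1.66 ± 0.29 (adjusted p = 0.00183) and lower in HT than in ST by 1.90 ± 0.27 (adjusted p = 2.55e-05). With the slide term the differences were 2.29 ± 0.24 (adjusted p = 0.000118) and -2.10 ± 0.30 (adjusted p = 0.000141). Within slides, the ST-FC difference was 2.14 on slide 1 and 2.45 on slide 2, and the HT-ST difference was -2.20 on slide 2 and -2.07 on slide 3.

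Olfr1382 had 6.03, 5.77, 5.55 and 5.99 in SC ST and 5.21, 4.80, 4.95 and 5.01 in SC FC, without overlap (0.75 ± 0.16, adjusted p = 0.00466, and 0.79 ± 0.17 with the slide term, adjusted p = 0.00729). In CM FC it had 5.23, 5.43 and 5.68, which overlapped CM ST at 5.83, 5.60, 5.58 and 5.63. In SC HT it had 4.96, 5.31, 5.32 and 5.08, below every SC array of ST.

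The other Olfr rows within 1000000 bases of Olfr1393 were then looked up, after its values had been seen, so no test of them as a group was made. The stretch held 12 Olfr rows including Olfr1393 and Olfr1382, and 4 of the 12 were called higher in ST than in FC on chow. The other 2 were Olfr10 and Olfr1388, which were marked well above background on 22 and 21 arrays. Olfr10 ranged from 6.77 to 7.60 in ST, from 5.58 to 6.38 in FC and from 5.22 to 5.85 in HT. Olfr1388 ranged from 6.30 to 8.88 in ST, from 5.08 to 5.77 in FC and from 4.85 to 6.49 in HT. Of the nearby genes that are no receptors, Mgat1, an enzyme of protein glycosylation, ranged from 13.86 to 14.34 in ST and from 14.15 to 14.34 in FC, and was not called (adjusted p = 0.644). Zfp62, also not called, ranged from 8.92 to 9.98 in ST and from 9.30 to 10.08 in FC (adjusted p = 0.382). A probe without a gene name between them was called higher in ST (0.59, adjusted p = 0.0407), with ranges in ST and FC that overlapped, and was not called with the slide term (0.02, adjusted p = 0.967).

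The probes of these receptors are printed 5′ to 3′ because they are alike. Capitals mark the codons of the NPxxY motif, which closes the last membrane helix of these receptors. Of all member probes, 17.8% held these codons, compared with 8.16% of the probes of other Olfr identifiers and 0.384% of all probes. The positions on mm9 are chr11:49094504-49094563 (Olfr1393), chr11:49131914-49131973 (Olfr10), chr11:49258186-49258245 (Olfr1388) and chr11:49349519-49349578 (Olfr1382).
Olfr1393: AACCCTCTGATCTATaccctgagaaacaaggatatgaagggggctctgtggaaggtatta
Olfr10: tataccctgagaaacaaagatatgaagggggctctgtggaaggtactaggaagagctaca
Olfr1388: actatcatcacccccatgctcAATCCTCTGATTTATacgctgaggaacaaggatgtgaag
Olfr1382: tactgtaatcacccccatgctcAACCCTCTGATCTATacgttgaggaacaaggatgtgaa
The Olfr1382 value averages the probe shown, which met the detection rule, with a second probe that was well above background on 0 of 23 arrays. The Olfr10 probe begins at the last codon of the motif. Over their overlap of 48 bases, the Olfr1393 and Olfr10 probes were identical at 46, with 27 identical bases in a row. The Olfr1388 and Olfr1382 probes were identical at 54 of 59 bases. A probe can capture the transcript of its near-identical neighbor, so the values within each of these pairs are uncertain as to which gene they report.

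**Figure D4:**
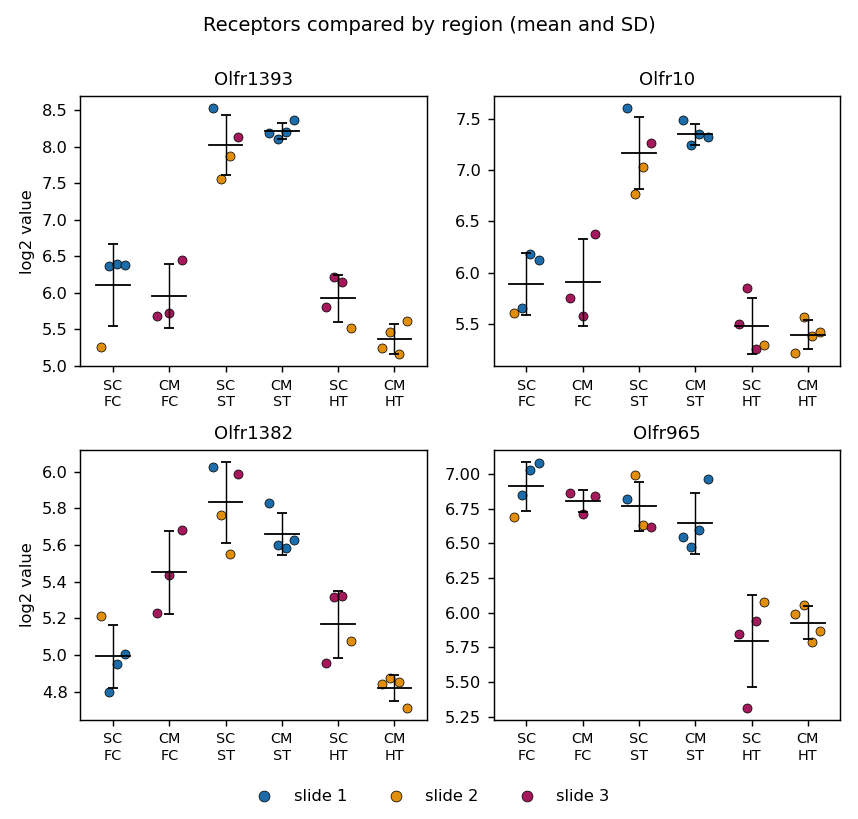
Log2 value of Olfr1393, Olfr10, Olfr1382 and Olfr965 on every array, by diet and region (x axis), colored by slide; horizontal bars are group means and error bars SD. For Olfr1393 and Olfr10 the 8 ST arrays are above all others, and for Olfr965 the 8 HT arrays are below all others.

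HT and FC differed on chow for 23 receptors, compared with 23% of all rows. Of these, 20 were higher in HT (12.7% of all rows) and 3 lower (10.3% of all rows). The 3 largest differences were those of Olfr1415 (1.85 ± 0.31, adjusted p = 8.43e-05), Olfr170 (1.33 ± 0.27, adjusted p = 0.000611) and Olfr96 (1.27 ± 0.19, adjusted p = 3.66e-05). Olfr1415 had 9.14, 9.05, 9.13 and 8.17 in SC HT, and Olfr96 had 7.63, 7.63, 7.81 and 7.09, in both cases with the slide 2 array of L58 at the low end. With the slide term these differences became -0.21 ± 0.36, -0.10 ± 0.33 and -0.21 ± 0.17, and none of the 20 was called higher. Of all 31395 rows, 1971 were called higher in that model. Olfr319 changed sign, from 0.70 ± 0.21 (adjusted p = 0.0112) to -0.69 ± 0.21 (adjusted p = 0.0308), and was called in both models. With the slide term, Olfr319 and Olfr921 were the 2 receptors called lower, compared with 6.62% of all rows. Within slide 2, where L58 gave the HT array and L52 the FC array, Olfr1415 differed by 0.01 and Olfr170 by -0.15.

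The 3 receptors lower in HT were Olfr965, Olfr339 and Olfr921. Olfr965 had 5.85, 5.32, 5.94 and 6.08 in SC HT and 5.99, 6.06, 5.79 and 5.87 in CM HT. It had 6.69, 6.85, 7.03 and 7.07 in SC FC, 6.86, 6.71 and 6.84 in CM FC, 6.82, 6.99, 6.63 and 6.62 in SC ST and 6.55, 6.47, 6.60 and 6.96 in CM ST. All 8 HT arrays were below all arrays of FC and ST. The HT-FC difference on chow was -1.17 ± 0.16 (adjusted p = 9.14e-06), and with the slide term -0.82 ± 0.28 (adjusted p = 0.0602). The HT-ST difference was -0.95 ± 0.17 (adjusted p = 0.000295), and with the slide term -0.78 ± 0.24 (adjusted p = 0.0322). Olfr339 had 6.98, 6.79, 6.84 and 6.51 in SC HT and 7.75, 7.72, 7.43 and 7.43 in SC FC, without overlap. For Olfr339 the HT-FC difference was -0.73 ± 0.20 (adjusted p = 0.00726) and with the slide term -0.78 ± 0.38 (adjusted p = 0.191). Olfr921 had 7.54, 7.28, 6.94 and 7.42 in SC HT and 8.14, 7.63, 7.75 and 7.83 in SC FC, also without overlap. Its difference was -0.59 ± 0.16 (adjusted p = 0.00571) and with the slide term -1.11 ± 0.27 (adjusted p = 0.00889). Olfr965, Olfr921, Olfr901, Olfr907 and Olfr149 form a cluster on chromosome 9, and the Olfr965 probe, shown with its NPxxY codons in capitals because it gave the clearest HT pattern, lies at chr9:39527651-39527710.
Olfr965: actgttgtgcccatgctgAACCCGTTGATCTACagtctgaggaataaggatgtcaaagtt

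HT and ST differed on chow for 8 receptors, compared with 11.8% of all rows. Of these, 6 were higher in HT (5.50% of all rows) and 2 lower (6.35% of all rows). Those higher were Olfr170 (1.1 ± 0.29, adjusted p = 0.00926), Olfr94 (0.93 ± 0.22, adjusted p = 0.00384), Olfr74 (0.73 ± 0.14, adjusted p = 0.000756), Olfr549, Olfr96 and Olfr629. The 2 lower were Olfr1393 and Olfr965. With the slide term, none was called higher in HT, compared with 1730 of all 31395 rows. In that model 4 were called lower (Olfr1393, Olfr965, Olfr1382 and Olfr921), compared with 5.68% of all rows. Olfr74 had 6.59, 6.61, 6.69 and 6.17 in SC HT and 5.38, 5.78, 5.91 and 6.17 in SC ST, and with the slide term its difference was 0.39 ± 0.14 (adjusted p = 0.0785).

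The receptors that varied least were Olfr907, with a range of 0.505 over all arrays (5.86 to 6.36), and Olfr414, with a range of 0.582 (6.09 to 6.67). The median range was 1.27 over the 68 receptors and 1.12 over all rows. Olfr907 had 6.20, 6.21, 5.90 and 6.19 in SC FC and 6.18, 6.34 and 6.36 in CM FC, which overlapped. In Olfr414 the slide 2 array of L52 in SC FC (6.63) stood above the 3 slide 1 arrays at 6.16, 6.09 and 6.09.

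The receptors varied together. Over the 23 arrays, the median Pearson correlation over the 2278 pairs was 0.396, and 268 pairs were above 0.8. After each slide's mean had been subtracted from each row, the median was 0.097 and 3 pairs were above 0.8. These are descriptions over arrays that share slides, mice and normalization. The correlations were not computed for the other Olfr rows or for all rows, so they do not show a trait particular to these receptors.

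Of the 31 genes listed for olfactory signal transduction, receptor trafficking and receptor choice, 30 had a row and 25 were well above background on every array. The list is separate from the receptors, and most of its genes are used widely in the brain. In the CM-SC comparison, 1 of 30 was called in FC, none in ST and none in HT. Of all rows, 2.94%, 0.602% and 0.178% were called. The called gene was Rtp2, a chaperone that carries olfactory receptors to the cell surface, whose mean was 6.82 in SC FC and 7.90 in CM FC (1.29, adjusted p = 0.000498). Rtp2 also differed between slides (slide 3 minus slide 1, 1.47, adjusted p = 0.000488), as did the channel subunit Cnga2 (0.52, adjusted p = 0.0341), and no other gene of the list passed that test. Of all rows, 8.13% passed it. The median difference between slides 3 and 1 was -0.07 over the 30 genes.

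On chow, 4 of the 30 pathway genes were called higher in ST than in FC and 4 lower, compared with 5.15% and 4.18% of all rows. The higher ones included Gnal, the Golf subunit that couples dopamine and adenosine receptors in the striatum (mean 13.79 in ST, 12.34 in FC), and Ric8b, its chaperone (11.52 and 10.44). Among 6 markers of olfactory sensory neurons with a row, Rtp1 was well above background on 4 arrays and Stoml3 on 9, while Omp, Cnga2, Cnga4 and Gng13 were on all 23. None of the 6 was called between diets in any region. Their differences between slides 3 and 1 were 0.52 for Cnga2, 0.28 for Gng13, 0.02 for Rtp1, -0.44 for Cnga4, -1.26 for Stoml3 and -1.32 for Omp, with Cnga2 alone called. Without a slide term, Cnga2 had CM-SC differences of 0.35 in FC (limma, adjusted p = 0.0114) and -0.37 in ST. Both shared the sign of the median receptor, whereas the HT difference of Cnga2, 0.15, did not (median receptor -0.093). The median over these 6 markers had the sign opposite to that of the receptors in every region (FC -0.068, ST 0.077, HT 0.064). Any part of sensory neurons in the receptors' values was not tested.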

How the data were processed

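Total RNA of 3 brain regions from 8 mice was hybridized to 23 one-color Agilent mouse arrays, whose number limits the precision. Spot intensities were read by the authors with Feature Extraction 10.7.3.1, per the file headers. The log2 values deposited by the authors had been made with limma from median spot intensities by normexp background correction, quantile normalization over all arrays, a filter at 1.1 times the 95th percentile of negative controls on at least 4 arrays, and averaging by transcript. Quantile normalization gives all arrays 1 distribution, so values are relative to the other probes. The table was rebuilt from the scanner intensities to within 5e-09, and no column was left out. Columns were matched to samples by the labels.

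The 31395 rows were tested with limma 3.58.1 (statmod 1.5.0, R 4.3.3), with a mean for each of 6 groups, weights per array, a random block for the mouse and Benjamini-Hochberg adjustment over all rows. As in the study's methods, no slide term was used; the slide was added as a fixed term in a further model. A receptor was called at 2-fold and adjusted p under 0.01 for diet in FC and ST, at 1.5-fold and under 0.05 for diet in HT and for regions, and at under 0.05 for slides and differences of diet effects. The pairing comes from the labels, since same-numbered arrays of a diet are regions of 1 mouse, and the correlation within mice was -0.0398. The script was tested on simulated data with known changes. Figures were drawn with matplotlib 3.10.9.

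The receptors and gene lists were chosen with earlier results of these data known. Named were up to 3 called receptors with the largest rise and fall per comparison (where fewer than 2 were called, the 2 with the largest difference), the 3 with the largest slide F statistic, the receptors that the study lists for the hypothalamus, the 2 with the smallest range, and 3 rows just outside the rule. Alternatives covered the slide, the block, array weights, signal, background, normalization, filters, thresholds, the detection rule and each array left out. Sequences and mm9 positions are those of the array's annotation.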

Additional observations from a re-analysis of the deposited data

Results flagged for a closer look

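For 19 receptors, 95 groups of 4 values each were examined for a single array far from the others by Dixon's criterion, and 10 met it. Chance alone meets this criterion in about 1 of 20 groups of unselected values. Most of these receptors were named for large slide, diet or region differences in the same values. The count of 10 and its split by slide are therefore descriptions, not to be set against that rate. In 8 of these 10, the array was the only one of its group on its slide. In SC FC, the array of L52 (slide 2) stood apart for Olfr1393 at 5.26 (others 6.37 to 6.40), Olfr319 at 8.40 (others 7.37 to 7.48) and Olfr414 at 6.63 (others 6.09 to 6.16). In SC HT, the array of L58 (slide 2) stood apart for Olfr1415 at 8.17 (others 9.05 to 9.14), Olfr170 at 6.10 (others 7.46 to 7.56), Olfr319 at 7.35 (others 8.28 to 8.45) and Olfr549 at 7.09 (others 8.06 to 8.21). In SC ST, the array of L52 (slide 1) stood apart for Olfr821 at 6.28 (others 6.82 to 6.88). The other 2 were O56 in CM HT for Olfr1415 at 7.66 (others 8.29 to 8.37) and L56 in SC FC for Olfr907 at 5.90 (others 6.19 to 6.21), which shared their slides with arrays of their own group.

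The CM-SC difference was larger in FC than in ST or HT by a test of the difference of contrasts (limma, adjusted p under 0.05) for these named receptors. Between FC and ST, the difference of log2 differences was 3.06 for Olfr1415, 2.55 for Olfr1466, 1.96 for Olfr170, 2.19 for Olfr319, 1.94 for Olfr549 and 1.46 for Olfr94. Between FC and HT it was 2.82 for Olfr1415, 2.83 for Olfr170, 2.47 for Olfr319, 2.25 for Olfr549 and 2.40 for Olfr94. With the slide as a fixed term none of these passed the test, and in FC no slide held both diets.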

How the results depend on the processing

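With the slide as a fixed term, the receptors called became 0 for CM-SC in FC, 0 in HT, 2 for ST-FC, 2 for HT-FC and 4 for HT-ST, and those with different diet effects became 0 for FC and ST and 0 for FC and HT. Signs were reversed for Olfr1415 in CM-SC in FC (-0.27) and in HT-FC (-0.21), Olfr170 (-0.10) and Olfr96 (-0.21) in HT-FC, and Olfr1466 in CM-SC in ST (0.28). With the slide as a random block in place of the mouse, the counts were 4 for CM-SC in FC, 0 in HT, 2 for ST-FC, 10 for HT-FC, 4 for HT-ST, 22 for FC and ST and 14 for FC and HT. Without array weights they were 5 for CM-SC in FC, 0 in HT, 3 for ST-FC, 15 for HT-FC, 21 for FC and HT and 46 for the slide. With a normexp offset of 50 they were 7 for CM-SC in FC, 3 for ST-FC, 13 for HT-FC and 8 for ST and HT, and with processed signals scaled to the 75th percentile 29 for CM-SC in FC, 3 in ST, 20 for ST-FC, 40 for HT-FC and 4 for ST and HT. An adjusted p under 0.05 without a fold threshold gave 43 for CM-SC in FC, compared with 28.6% of all rows, and 25 in ST, compared with 9.82%. Quantile normalization within regions gave 13 for HT-ST and 3 for ST and HT. Fitting only the regions compared gave 0 for CM-SC in HT, 3 for ST-FC and 5 for ST and HT. REML weights gave 1 for CM-SC in ST and 6 for ST and HT, a filter at well above background on 4 arrays gave 1 and 6, and mean spot signals and 1 value per probe each gave 3 for ST and HT. The cause of these shifts was not tested. Except for the fixed slide term and the fold threshold, the alternatives in this section were counted over the receptors only. Their counts do not separate shifts of the receptors from shifts of all rows. The number of receptors was 177 with the positive and significant flag and 215 when all arrays of 1 group sufficed.

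Without the mouse as a replicate block, 11 receptors were called for CM-SC in FC, 4 in HT and 5 for ST and HT. With the replicate number as a fixed replicate block, 11 were called for CM-SC in FC, 1 in ST, 4 in HT and 4 for ST-FC.

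When single arrays were left out, the counts ran from 8 to 14 for CM-SC in FC, 0 to 2 in ST, 0 to 7 in HT, 3 to 15 for ST-FC, 19 to 26 for HT-FC, 5 to 11 for HT-ST, 45 to 50 for FC and ST, 30 to 41 for FC and HT, 0 to 14 for ST and HT and 20 to 32 for the slide. CM-SC in ST gave 2 without L52 or L56 and 1 without L54 or O56 of ST or L52 of FC. HT-ST gave 5 without L54 of HT. ST and HT gave 14 without L52 of ST, 8 without L52 of FC, 9 without L54 of ST and 10 without L56 of ST.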
